A study of Mus musculus with 6 samples.

Results

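The 10 genes described here belong to interleukin-6 family signalling and the acute phase response: the cytokine genes Il6 and Lif, the receptor genes Il6ra, Il6st, Osmr and Lifr, the transcription factor gene Stat3, its feedback inhibitor gene Socs3, and the acute phase genes Lcn2 and Saa3. Their members on the array were chosen by gene symbol, as every probe set whose annotation named 1 of the 10 genes and no other, which gave 24 of 45101 probe sets for 10 of 18193 annotated genes. Expression was measured in whole hearts of mice aged 8 weeks on Affymetrix arrays, with 1 array per mouse. There were 3 DNMTs-Tg mice (label numbers 1, 5 and 6) and 3 wild-type mice (numbers 1, 4 and 6). DNMTs-Tg mice express DNMT3A2 (the shorter isoform of DNMT3A, which methylates DNA de novo) and its inactive partner DNMT3L from transgenes in many somatic tissues throughout life. Per the labels, they came from FVB-Tg(Ddx4-cre)1Dcas/J mothers, whose Cre is driven by a germ cell promoter, and fathers carrying the floxed construct. The background strain of the wild-type mice is not stated in the labels. The study asked which genes lose expression when both proteins are present, and DNA methylation itself was not analysed here.

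Cytokines of this family signal through a shared receptor chain, gp130, which Il6st encodes. Interleukin-6 first binds its own receptor Il6ra, leukaemia inhibitory factor and cardiotrophin-1 join gp130 to the receptor encoded by Lifr, and oncostatin M joins it to the receptor encoded by Osmr. The assembled receptors activate JAK kinases, which phosphorylate STAT3, and STAT3 switches on acute phase genes as well as Socs3, which shuts the receptor off again. In the heart the pathway is known for supporting cardiomyocyte survival and for taking part in the response to overload and injury.

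Values are log2 signals, so that a difference of 1 is a doubling. The 6 arrays had medians of 5.28 to 5.33. The transgene Dnmt3l read 12.19 to 12.38 on the DNMTs-Tg arrays against 5.17 to 5.48 on the wild-type ones, matching the labels of all 6 arrays. Sex did not match. The labels call every mouse female except wild-type replicate 6, whereas the Y-linked gene Eif2s3y read 9.41 to 9.52 on 5 arrays and 3.32 on that of wild-type replicate 4, which alone had Xist, the X-inactivation RNA, at 10.10. DNMTs-Tg replicate 1 also stood apart. Of the 13634 genes tested, 30.2% were at their highest on that array, and markers of macrophages and of fibroblasts averaged 1.37 and 1.21 above the wild-type mean there, against -0.03 and 0.28 in replicate 5 and 0.03 and 0.15 in replicate 6. The 12 cardiomyocyte markers averaged -0.16 to 0.02 on the 6 arrays, but single markers differed both ways. The 2 genotypes did not overlap for 9 of them, 3 higher in DNMTs-Tg and the others lower, against 34.9% of all genes. Results are therefore also given without DNMTs-Tg replicate 1, and those without wild-type replicate 4 are included in the ranges over arrays left out.

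Lifr fell in DNMTs-Tg hearts, and it was the member gene that passed the test, while Osmr, Stat3, Il6st, Socs3 and Lcn2 had higher means that did not pass. A gene was tested where its brightest probe set lay above the 40th percentile of the array (log2 4.64 to 4.72) on at least 3 of the 6 arrays, which held for 8 of the 10 genes and left Il6 and Lif untested in this fit. With limma and Benjamini-Hochberg adjustment over 13634 genes, 1 of the 8 fell (3.15% of all genes did) and 0 rose (2.24% of all genes did) at an adjusted p below 0.05, and 4 had an unadjusted p below 0.05. Over all genes tested, 5.39% were called and 26% had an unadjusted p below 0.05. The members' 1 call is read against that background. The groups did not overlap for 4 of the 8 genes (Lifr, Il6st, Osmr and Stat3), against 34.9% of all genes. The median difference of the 8 genes was 0.43, against 0.01 over all genes. Without DNMTs-Tg replicate 1 it was 0.21, with Lifr again the 1 call.

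**Figure D1:**
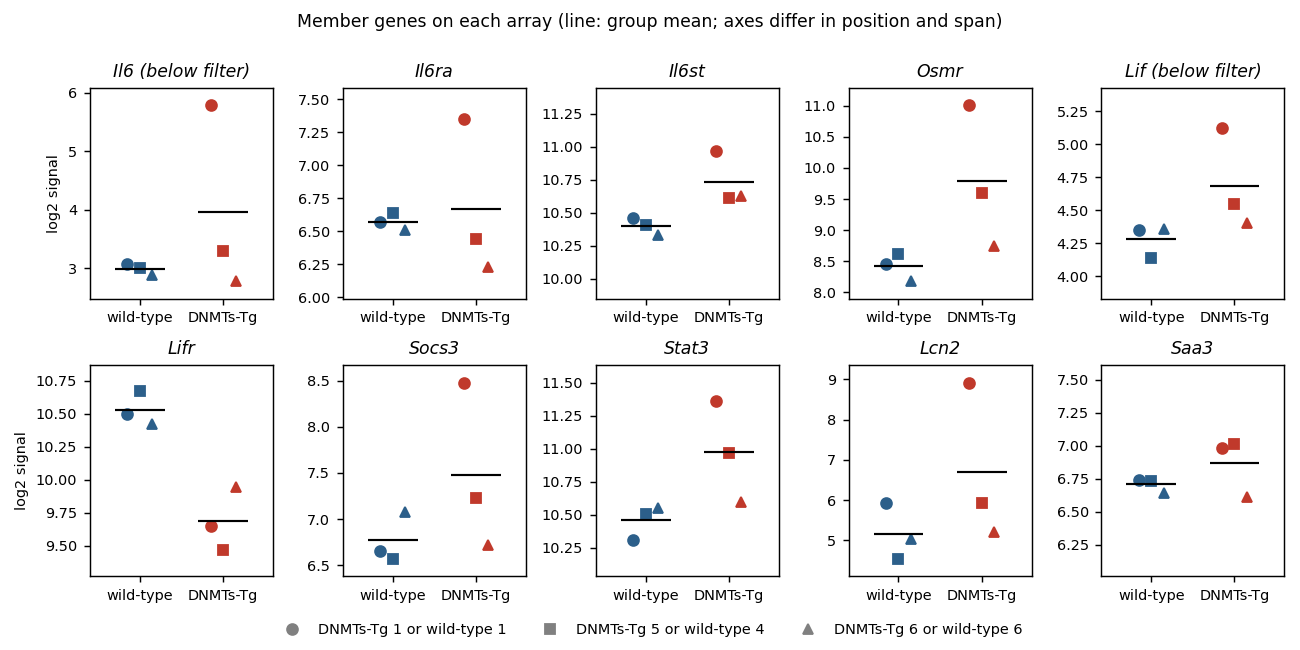
Log2 signal of each of the 10 genes (y axis) on the 3 wild-type (blue) and 3 DNMTs-Tg (red) arrays, with 1 panel and its own axis per gene, for the brightest probe set. Lines are group means. Lifr is lower on every DNMTs-Tg array, and the circle of DNMTs-Tg replicate 1 is the highest point for Il6, Il6ra, Il6st, Osmr, Lif, Socs3, Stat3 and Lcn2.

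Lifr encodes the receptor chain that leukaemia inhibitory factor and cardiotrophin-1 share. Its brightest probe set (1454984_at) read 9.65, 9.47 and 9.95 in DNMTs-Tg replicates 1, 5 and 6, and 10.50, 10.67 and 10.42 in wild-type replicates 1, 4 and 6. Every DNMTs-Tg heart lay below every wild-type heart, and replicate 1 was not the extreme. The means were 9.69 ± 0.24 and 10.53 ± 0.12 (SD, n = 3 each), so that Lifr fell by 0.84 ± 0.14 (SE) on the log2 scale, 1.79-fold (limma, adjusted p = 0.0237). In bulk tissue fewer cells of a type and less RNA per cell cannot be told apart. A second probe set (1450207_at) read 5.77, 5.98 and 6.14 against 6.41, 6.73 and 6.37, a difference of -0.54 with no overlap, but did not pass (adjusted p = 0.123 over 45037 probe sets). The remaining one (1425107_a_at) differed by -0.12 (adjusted p = 0.722), with overlapping groups. Leaving out 1 array at a time, the Lifr difference stayed between -0.97 and -0.73. It passed without DNMTs-Tg replicate 1 (adjusted p = 0.0280) or replicate 6 (0.00831). The call was lost without DNMTs-Tg replicate 5 (adjusted p = 0.0849) and without wild-type replicates 1, 4 or 6 (0.106, 0.104 and 0.0750). Averaging its kept probe sets instead of taking the brightest, Lifr fell by 0.50 and passed (adjusted p = 0.0422).

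The Lifr starts in RefSeq's promoter table are shown because the study asked about genes silenced through CpG methylation. In RefSeq annotation of GRCm38.p6, Lifr lies on chromosome 15, at 7090610 to 7197489. The promoter table holds 2 starts for it, each as 250 bases before and 50 after the start. Both lie inside the annotated gene, downstream of its 5′ end, whose own promoter is not shown. Below they are printed 5′ to 3′ on the plus strand, with every CpG in capitals, window A for chr15:7129322-7129621 and window B for chr15:7140292-7140591.
Lifr, window A: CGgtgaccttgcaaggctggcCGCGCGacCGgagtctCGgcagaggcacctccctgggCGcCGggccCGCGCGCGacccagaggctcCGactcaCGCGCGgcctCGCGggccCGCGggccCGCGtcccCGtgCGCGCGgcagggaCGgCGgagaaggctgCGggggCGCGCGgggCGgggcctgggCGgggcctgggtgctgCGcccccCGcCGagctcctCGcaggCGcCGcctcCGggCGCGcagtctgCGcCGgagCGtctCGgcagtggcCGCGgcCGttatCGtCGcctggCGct
Lifr, window B: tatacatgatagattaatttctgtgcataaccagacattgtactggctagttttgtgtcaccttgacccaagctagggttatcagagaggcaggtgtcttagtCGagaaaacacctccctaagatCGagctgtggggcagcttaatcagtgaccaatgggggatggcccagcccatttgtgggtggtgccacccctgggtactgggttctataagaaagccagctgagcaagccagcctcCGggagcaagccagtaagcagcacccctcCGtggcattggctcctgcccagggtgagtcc
Window A holds 53 CpGs, which places it at percentile 99.7 of 32851 promoters, whereas window B holds 4 (percentile 38.0). The median promoter holds 7 CpGs. Which start the measured Lifr RNA used is not known from these arrays. In their tabled windows, Il6st (33 CpGs), Socs3 (31), Il6ra (25) and Osmr (22) have more CpGs than 20, the upper quartile of all promoters. Whether CpG content bears on the differences was not tested. Stat3 has 15, Lif 7, Saa3 5, and Il6 and Lcn2 3 each. The tabled starts of Osmr, Saa3, Socs3 and Stat3 also lie downstream of the annotated 5′ end of the gene.

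Among the other ligands and receptors of the gp130 family, Ctf1 fell. Ctf1 encodes cardiotrophin-1, a cytokine made in the heart that acts through the Lifr chain. The log2 signal was 5.69, 6.21 and 6.58 in DNMTs-Tg replicates 1, 5 and 6, against 8.34, 8.20 and 8.21 in wild-type replicates 1, 4 and 6. The groups lay well apart, and the wild-type hearts were close together. Ctf1 fell by 2.09 ± 0.22 (SE) on the log2 scale, 4.26-fold, from 8.25 ± 0.07 to 6.16 ± 0.45 (SD, n = 3 each, limma, adjusted p = 0.00465). It passed with any 1 array left out, with differences of -2.30 to -1.86 and adjusted p of 0.00173 to 0.0353. Its promoter window holds 5 CpGs (percentile 43.6). Of 17 listed ligands and receptors 9 were tested, of which 1 fell, 0 rose and 3 lay above 0, with a median of -0.09. Of all genes tested, 3.15% fell, 2.24% rose and 50.8% lay above 0. An unadjusted p below 0.05 was reached by 2 genes, both lower, against 26% of all genes. Cntfr, the ciliary neurotrophic factor receptor, which pairs with the Lifr chain, differed by -0.43 without overlap (adjusted p = 0.126). The groups did not overlap for 2 of the 9 genes, against 34.9% of all genes. The oncostatin M gene Osm differed by -0.15 and the interleukin-11 gene Il11 by 0.08, with overlapping groups. Both were dim, at 5.12 to 5.64 and 4.93 to 5.34, near the array medians of 5.28 to 5.33. With the filter at the 60th percentile, 1 gene of this list, Ctf1, was still tested, so most of the list is poorly measured here.

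The cytokine members themselves were dim. Il6 read 5.79 in DNMTs-Tg replicate 1, 3.30 in replicate 5 and 2.78 in replicate 6, and from 2.89 to 3.07 in the 3 wild-type hearts. A signal above the 40th percentile was thus present on 1 array, and the groups overlapped. The difference of 0.97 ± 0.66 (SE) did not pass in the fit over all 45037 probe sets (adjusted p = 0.456), and without DNMTs-Tg replicate 1 it was 0.06 (adjusted p = 0.891). Lif, which encodes leukaemia inhibitory factor, had 5.12, 4.55 and 4.40 on the DNMTs-Tg arrays by its brighter probe set, against 4.35, 4.14 and 4.36. Again replicate 1 was the array above the 40th percentile. The groups of this probe set did not overlap, yet the difference of 0.40 did not pass (adjusted p = 0.293), and without replicate 1 it was 0.19 (adjusted p = 0.492). The other Lif probe set differed by 0.12 (adjusted p = 0.631).

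Osmr, the oncostatin M receptor chain, had a higher mean in DNMTs-Tg hearts that did not pass. The brightest probe set (1418674_at) read 11.01, 9.60 and 8.74 in DNMTs-Tg replicates 1, 5 and 6, against 8.46, 8.61 and 8.18 in wild-type replicates 1, 4 and 6. Each DNMTs-Tg heart was above the wild-type range, replicate 6 barely so. The difference was 1.37 ± 0.51 (SE), 2.58-fold (limma, adjusted p = 0.153). Without DNMTs-Tg replicate 1 it was 0.75 (adjusted p = 0.127), and without replicate 6 it was 1.89 and passed (adjusted p = 0.0340). Osmr's other probe sets, below the signal filter, differed by 0.65 and 0.37. The opposite signs of Osmr and Lifr were each measured against the same 3 wild-type hearts, and the difference between both changes was not tested.

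Il6st and Il6ra did not pass. The brightest Il6st probe set read 10.97, 10.61 and 10.63 in DNMTs-Tg replicates 1, 5 and 6, and 10.46, 10.41 and 10.33 in the wild-type hearts. The groups did not overlap, but the difference of 0.34 ± 0.12 (SE) did not pass (limma, adjusted p = 0.145), and without replicate 1 it was 0.22 (adjusted p = 0.160). The other Il6st probe sets differed by -0.06, -0.03 and -0.09, so the sign depends on which is read. Il6ra read 7.35, 6.44 and 6.23 in DNMTs-Tg hearts, against 6.57, 6.64 and 6.51. Replicate 1 lay above the wild-type hearts and the other two below them, which gave a mean difference of 0.10 (adjusted p = 0.847) and, without replicate 1, -0.24 (adjusted p = 0.265). Its second probe set differed by 0.003.

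**Figure D2:**
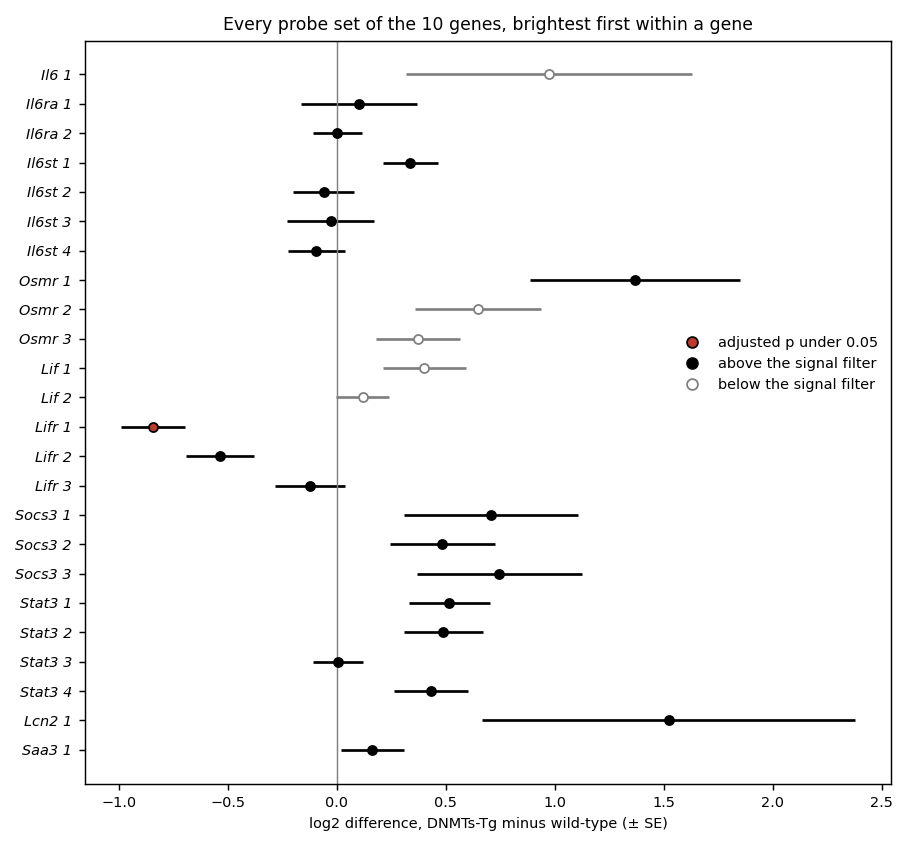
Log2 difference between DNMTs-Tg and wild-type hearts (x axis, bars ± SE, 3 arrays per group) for each of the 24 probe sets, numbered from the brightest within each gene. The brightest Lifr probe set is the 1 called (red), all 3 of Lifr lie below 0, and the probe sets of Il6st lie on both sides of 0.

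Stat3, the transcription factor at the end of the receptor pathway, was somewhat higher in DNMTs-Tg hearts without passing. It read 11.36, 10.97 and 10.60 in replicates 1, 5 and 6, against 10.31, 10.51 and 10.55. The groups were separated by a narrow margin at replicate 6. The difference was 0.52 ± 0.19 (SE), 1.43-fold (limma, adjusted p = 0.150), and a second bright probe set gave 0.49. Of 4 Stat3 probe sets, 3 lay between 0.43 and 0.52 and 1 at 0.01. Without DNMTs-Tg replicate 1 the difference was 0.33 (adjusted p = 0.190), and without replicate 6 it was 0.71 and passed (adjusted p = 0.0348).

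Socs3 encodes the STAT3-induced inhibitor of gp130. Its RefSeq promoter window is printed because it was the only one among those of the 10 genes to hold TTCNNNGAA, the palindromic core that STAT proteins bind, read alike on both strands. The window is chr11:117969317-117969616 of GRCm38.p6, printed 5′ to 3′ on the minus strand with the match in capitals.
Socs3: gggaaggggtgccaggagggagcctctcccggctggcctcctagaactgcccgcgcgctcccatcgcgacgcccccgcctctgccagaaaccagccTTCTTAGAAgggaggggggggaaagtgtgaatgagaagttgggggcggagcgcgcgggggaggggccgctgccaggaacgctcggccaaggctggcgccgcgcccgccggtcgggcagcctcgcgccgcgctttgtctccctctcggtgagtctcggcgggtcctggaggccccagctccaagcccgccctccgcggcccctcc
The match begins 154 bases before the start, and 8.3% of all promoters of this length hold such a match. It is a match of letters and not a measured binding site. Socs3 read 8.48, 7.23 and 6.72 in DNMTs-Tg replicates 1, 5 and 6, against 6.65, 6.57 and 7.08 in wild-type replicates 1, 4 and 6. Replicates 1 and 5 were above the wild-type hearts and replicate 6 was within their range. The difference of 0.71 ± 0.42 (SE) did not pass (limma, adjusted p = 0.327), and without replicate 1 it was 0.20 (adjusted p = 0.592). This probe set and another, at 0.75, have probe set names marked _x, which the platform uses where probes can also match other transcripts. The remaining Socs3 probe set, without it, gave 0.48 (adjusted p = 0.317).

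Neither acute phase member passed the test. Lcn2, which encodes the iron-siderophore binding protein lipocalin-2, read 8.92 in DNMTs-Tg replicate 1 but 5.93 and 5.20 in replicates 5 and 6, against 5.93, 4.54 and 5.02 in wild-type hearts. Replicate 1 stood far above, and the other two were within or near the wild-type range. The difference was 1.52 ± 0.91 (SE, limma, adjusted p = 0.328), and 0.40 without replicate 1 (adjusted p = 0.579). Saa3, a serum amyloid A gene made outside the liver by macrophages and fat, read 6.98, 7.01 and 6.61 against 6.74, 6.73 and 6.64. The groups overlapped and the difference was 0.16 ± 0.14 (SE, adjusted p = 0.488), or 0.11 without replicate 1 (adjusted p = 0.684).

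**Figure D3:**
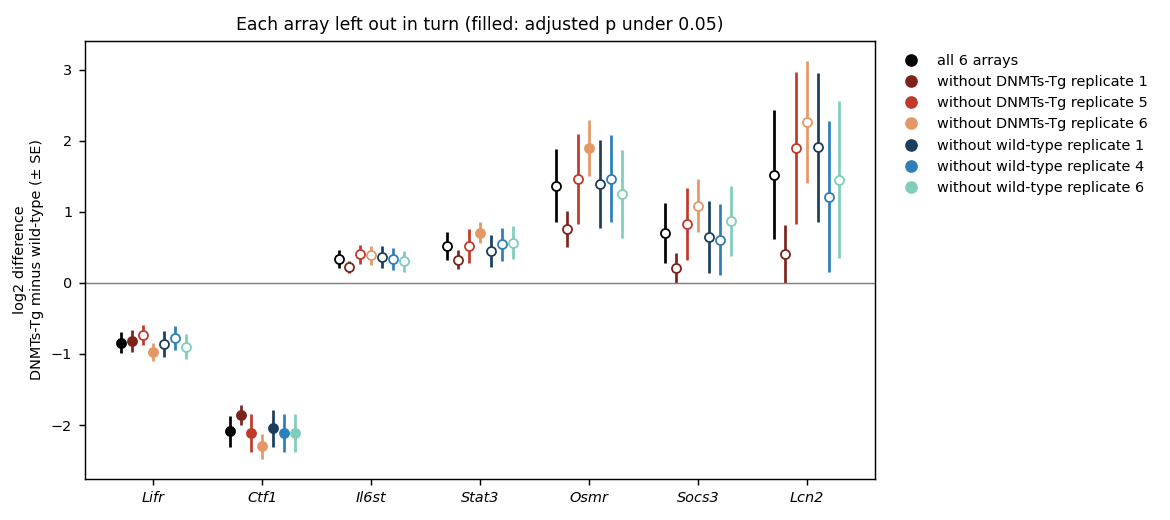
Log2 difference (y axis, ± SE) of 7 genes with all 6 arrays and with each array left out in turn, filled where the adjusted p is below 0.05. Ctf1 is filled in every fit, Lifr in those with all arrays and without DNMTs-Tg replicates 1 or 6, and Osmr, Socs3 and Lcn2 move toward 0 without DNMTs-Tg replicate 1.

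Over the 24 probe sets, 18 had a difference above 0, 1 was called, 7 had an unadjusted p below 0.05 and 9 had groups that did not overlap. Of all 45037 probe sets, 2.11% were called, 19.2% had an unadjusted p below 0.05 and 26.5% did not overlap. The median difference was 0.35 for the 24 probe sets, against -0.02 over all probe sets. On the array of DNMTs-Tg replicate 1, 17 of the 24 probe sets were at their highest. By gene this held for 6 of the 8 members tested, against 30.2% of all genes tested. Probe sets of 1 gene share their RNA and are not independent.

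Of the 28 kinases, STATs, adaptors and inhibitors tested in this pathway, 1 rose and 3 fell, with a median difference of 0.05. Over all genes 2.24% rose and 3.15% fell. An unadjusted p below 0.05 was reached by 8 of the 28, against 26% of all genes. Ptpn11, the phosphatase SHP2 that docks on gp130, read 11.89, 11.89 and 11.66 in DNMTs-Tg hearts against 11.23, 11.16 and 11.16. The groups lay apart with little spread, and Ptpn11 rose by 0.63 ± 0.10 (SE, limma, adjusted p = 0.0178). Stat5b, a STAT that carries growth hormone signals, fell by 0.86 ± 0.17 (adjusted p = 0.0348), with 8.05, 8.22 and 8.65 against 9.06, 9.15 and 9.30. Grb2, an adaptor that links receptors and SHP2 to Ras, fell by 0.61 ± 0.12 (adjusted p = 0.0372). Pias1, an inhibitor of activated STATs, fell by 0.48 ± 0.10 (adjusted p = 0.0453). After averaging probe sets, Grb2 (limma, adjusted p = 0.0565) and Pias1 (0.153) did not pass, and Pias1 did not without the signal filter (0.0563). The 4 calls were kept without DNMTs-Tg replicate 1, where Ptpn2, a phosphatase that acts on JAKs and STATs, passed as well. All 4 were lost without DNMTs-Tg replicate 5 or without any 1 of the wild-type arrays. The kinase genes Jak1 and Jak2 differed by 0.24 and -0.04, with overlapping groups.

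Genes known as STAT3 targets leaned higher, with 25 of 34 above 0 and a median of 0.49, where 50.8% of all genes lay above 0. The list was chosen with earlier results of these data known, so its lean is a description. Of the 34 genes, 2 rose and 0 fell, against 2.24% and 3.15% of all genes. An unadjusted p below 0.05 was reached by 14 (26% of all genes), of which 13 were higher. Fgl2, a fibrinogen-like protein of immune and endothelial cells, read 11.43, 10.29 and 9.94 in DNMTs-Tg replicates 1, 5 and 6, against 8.60, 8.63 and 9.09, and rose by 1.77 ± 0.37 (SE, limma, adjusted p = 0.0407). Tnfrsf12a, the receptor of the cytokine TWEAK, read 12.18, 12.60 and 11.17 against 9.75, 10.60 and 10.27, and rose by 1.78 ± 0.38 (adjusted p = 0.0433). After averaging probe sets Fgl2 did not pass (adjusted p = 0.0511). For both the groups did not overlap, and for Tnfrsf12a replicate 5 was the highest. Without DNMTs-Tg replicate 1 the list's median was 0.25, with 4 rises (Fgl2, Timp1, Mt1 and Hmox1) and 2 falls (Bcl6 and Cebpb), and Tnfrsf12a did not pass (1.68, adjusted p = 0.0585). Without replicate 6 there were 9 rises. Without DNMTs-Tg replicate 5, or without any 1 of the wild-type arrays, 0 genes of this list passed limma's threshold and 11 to 14 had an unadjusted p below 0.05.

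Of 35 genes listed here under acute phase proteins, whether or not each responds so in mice, 15 could be tested, and 2 rose (Agt and A2m) while 0 fell. The median was 0.53, with 13 above 0 and 6 at an unadjusted p below 0.05, all higher. Ttr, whose protein falls in an acute phase response, is on the list and counts among these 6. Shares over all genes were 2.24% rising, 50.8% above 0 and 26% at an unadjusted p below 0.05. This list was also chosen with earlier results of these data known. Without the signal filter 28 were tested, and again Agt and A2m rose, but the median was 0.07 with 18 above 0. Agt, the angiotensinogen gene, read 9.06, 8.35 and 7.77 in DNMTs-Tg replicates 1, 5 and 6, against 5.71, 6.11 and 6.16. All DNMTs-Tg hearts were well above the wild-type hearts, and Agt rose by 2.40 ± 0.31 (SE), 5.28-fold (limma, adjusted p = 0.0103). It passed with 4 of the 6 arrays left out in turn, and not without DNMTs-Tg replicate 5 (adjusted p = 0.0580) or wild-type replicate 1 (0.0569). A2m, the protease inhibitor alpha-2-macroglobulin, read 5.57, 5.04 and 5.16 against 4.42, 3.83 and 3.93. All wild-type signals were dimmer than the 40th percentile, so that A2m entered the test through its DNMTs-Tg values alone. The fit without a filter called it too (limma, adjusted p = 0.0247). A2m was at least 1.45-fold higher, the DNMTs-Tg mean set against the mean of those wild-type percentiles (limma with the filter, adjusted p = 0.0228). The A2m call was lost without DNMTs-Tg replicate 5 or wild-type replicates 4 or 6 (adjusted p = 0.0674, 0.0962 and 0.0970). Without DNMTs-Tg replicate 1 the list's median was 0.14, with 4 rises (Agt, A2m, Itih4 and Serpina3n) and 0 falls. Without replicate 5 there were 0 calls (6 genes at an unadjusted p below 0.05), without replicate 6 there were 4, and without each of the wild-type arrays there was 1.

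**Figure D4:**
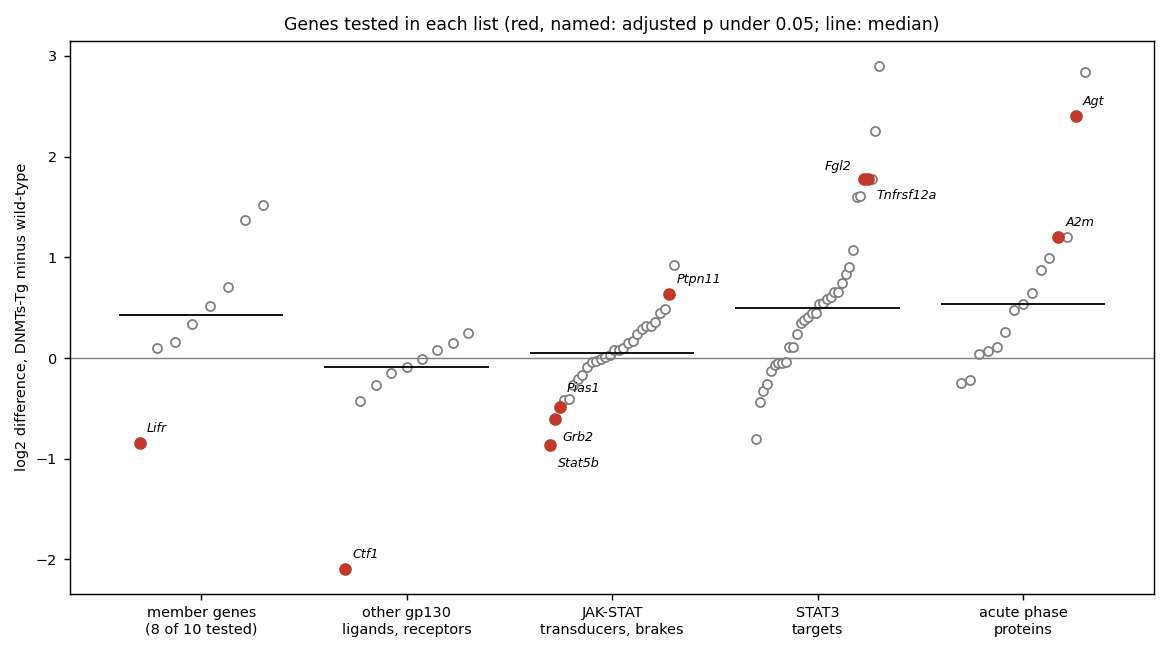
Log2 difference between DNMTs-Tg and wild-type hearts (y axis) of each gene tested, sorted within the member genes and 4 pathway lists (x axis), with lines at the medians. Genes at an adjusted p below 0.05 are red and named. The called ligand and receptor genes, Ctf1 and Lifr, lie below 0, and the called target and acute phase genes lie above 0.

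The higher values of these lists stood beside higher markers of other cells in DNMTs-Tg replicate 1. The 8 member genes averaged 1.21, 0.28 and -0.04 above the wild-type mean in replicates 1, 5 and 6, the STAT3 targets 1.17, 0.50 and 0.19, and the acute phase proteins 1.41, 0.53 and 0.30. Of 18 macrophage markers 17 were tested, with 0 called by limma and 2 at an unadjusted p below 0.05. The log2 of their summed linear signals, which the brightest markers dominate, was 12.59 to 13.97 in DNMTs-Tg and 12.66 to 12.94 in wild-type hearts. Of 14 fibroblast markers 14 were tested, with 0 called and 5 at an unadjusted p below 0.05. The log2 of their summed linear signals was 15.14 to 16.00 and 14.88 to 15.17. Of 15 neutrophil markers 9 were tested, and 2 rose, S100a8 by 1.86 (adjusted p = 0.0221) and S100a9 by 2.14 (adjusted p = 0.0336). Both calls were lost without DNMTs-Tg replicate 5 or wild-type replicates 4 or 6. Of all genes tested, 2.24% rose and 26% had an unadjusted p below 0.05. Csf3r differed by 0.43 without overlap (adjusted p = 0.0892), and the other 6 overlapped, from -0.24 (Il1r2) to 0.26 (Ltf), so that the list's median was 0.13. The list averaged 0.56, 0.44 and 0.50 in DNMTs-Tg and -0.13 to 0.21 in wild-type hearts. Mpo, Cxcr2, Mmp8 and Padi4, also on the list, lay below the filter. The log2 of the list's summed linear signals was 9.33 to 9.64 and 8.43 to 8.85. The part of these cells in the differences was not tested.

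**Figure D5:**
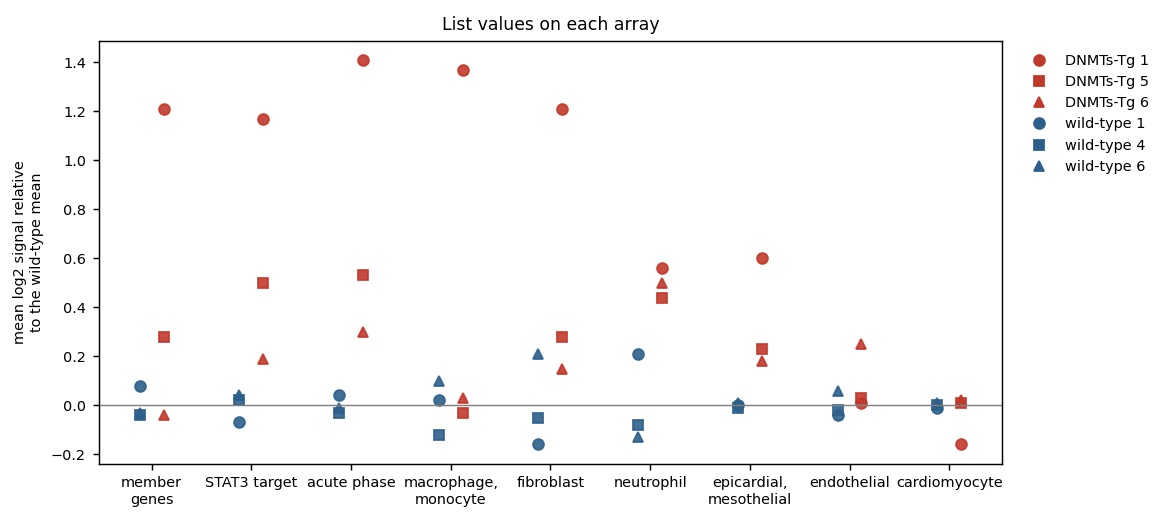
Mean log2 signal of each list relative to its wild-type mean (y axis) on each of the 6 arrays, for the member genes, 2 pathway lists and 6 marker lists (x axis). DNMTs-Tg replicate 1 is the highest point for the member genes, STAT3 targets, acute phase proteins and the macrophage, fibroblast, neutrophil, and epicardial and mesothelial markers. The mean of 9 neutrophil markers, of which S100a8 and S100a9 rose, is higher on all 3 DNMTs-Tg arrays.

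Other marker lists gave few calls, where 5.39% of all genes were called and 26% had an unadjusted p below 0.05. Of 8 epicardial and mesothelial markers 0 were called by limma and 3 had an unadjusted p below 0.05, with list values of 0.60, 0.23 and 0.18 in DNMTs-Tg replicates 1, 5 and 6. Of 7 lymphocyte and 3 adipocyte markers 0 were called, and 0 had an unadjusted p below 0.05. Of 12 endothelial markers 1 rose, and 3 had an unadjusted p below 0.05 (2 of them higher). Of 7 hepatocyte markers tested Cyp2e1 fell, and 3 had an unadjusted p below 0.05, of which Ttr (1.45-fold) and Ahsg (2.30-fold) were higher without passing. The called member and pathway genes were Lifr, Ctf1, Ptpn11, Stat5b, Grb2, Pias1, Fgl2, Tnfrsf12a, Agt and A2m. Their groups did not overlap, which was so for 34.9% of all genes. These genes were picked by their adjusted p, so their separation is not separate evidence. RNA integrity, as the log2 difference between 3′ and 5′ Gapdh probe sets, stood at 0.75, 0.53 and 0.71 in DNMTs-Tg replicates 1, 5 and 6, against 0.50, 0.40 and 0.40 in wild-type replicates 1, 4 and 6 (2-sided exact permutation test over arrays, p = 0.1, which is the lowest that 6 arrays allow). The Actb difference ranged from 0.91 to 1.40 and from 1.09 to 1.25 (exact p = 0.8). Its part in the differences was not tested.

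The genes whose values followed those of 3 members most closely over the 6 arrays were ranked by the root mean square distance between log2 values, each relative to its own wild-type mean. For Stat3 they were Snhg12 (0.0157), Rasa2 (0.0494) and Sorbs2 (0.059). For Osmr they were Cx3cl1 (0.175), Prkag2 (0.18) and Thbs1 (0.188). For Socs3 they were Lrp1 (0.0791), Pfkp (0.0977) and Col5a1 (0.125). With 13634 genes and 6 arrays, close matches are a description of these arrays.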

How the data were processed

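For each array the authors deposited a value per probe set, read here as a log2 signal because the values lay between 2.06 and 14.7 with none negative. The software, background correction and normalization behind them are not given in the sources, and no detection calls were used. Symbols came from the platform annotation, updated by gene ID to GRCm38.p6 (34754 probe sets), and 64 control probe sets were left out of the tests. Values were analysed as deposited. A gene stood for its brightest probe set (mean over 6 arrays) among those that exceeded the array's 40th percentile on at least 3 of them, a floor set here and not a measured background. Genotypes were compared 2-sided with limma 3.58.1 in R 4.3.3 (eBayes with trend) and Benjamini-Hochberg adjustment at 0.05. A second fit took all 45037 non-control probe sets without a filter. Fits were tested on simulated data.

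The members and gene lists were chosen with earlier results of these data known. Named were all members, up to 6 called genes per pathway list (otherwise the 2 with the smallest p), and the 3 genes closest to Stat3, Osmr and Socs3. Other genes named (Osm, Il11, Cntfr, Jak1, Jak2, S100a8, S100a9, other marker genes and those called with an array left out) were added after their values were seen. Listed genes without a tested probe set of 1 symbol were not analysed here. Alternatives tried were no filter or one at the 60th percentile, quantile normalization, arrays moved to a common median, gene means over probe sets, no trend, robust eBayes, array weights, a replicate block, a threshold of 0.1 and leaving out each array. Precision is limited by the number of arrays, and 3 against 3 arrays cannot give an exact p below 0.1.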

Additional observations from a re-analysis of the deposited data

How the results depend on the processing

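Lifr, Ctf1, Ptpn11, Stat5b, Grb2, Pias1, Fgl2, Tnfrsf12a, Agt and A2m kept their direction in each alternative that tested them. Ctf1 passed with any 1 array left out, and Lifr did not. Leaving out 1 array gave 0 to 3 called member genes (1 with all arrays), 0 to 4 member probe sets (1), 1 to 1 of the other gp130 ligands and receptors (1), 0 to 9 JAK-STAT genes (4), 0 to 9 STAT3 targets (2) and 0 to 4 acute phase proteins (2). Over all genes the same fits called 123 (without wild-type replicate 1) to 1604 (without DNMTs-Tg replicate 6), against 735. With array weights, whose estimation stopped before converging and which called 4822 genes in all, the counts were 4 member genes, 5 member probe sets, 2 ligands and receptors, 14 JAK-STAT genes, 20 STAT3 targets and 6 acute phase proteins. At a threshold of 0.1 there were 8 STAT3 targets and 4 acute phase proteins. With the mean of probe sets there were 2 JAK-STAT genes and 1 STAT3 target, and with the filter at the 60th percentile 1 acute phase protein. The causes were not tested.

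Numbers 1 and 6 occur in both groups, but same-numbered mice did not deviate together (correlations of -0.0543 and -0.0802 over 13634 genes). With the number as a replicate block, limma called 0 genes of each list, 0 member probe sets and 1 gene in all, and 2 member genes had an unadjusted p below 0.05. In that fit the genotype difference rests on the arrays numbered 1 and 6 alone. An array whose number occurs in only 1 group is absorbed by its own block. With so few arrays compared, the low counts cannot decide whether the calls hold once the numbers are paired. Signal over background is unknown, which limits the dim genes Il6 and Lif.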
